A study of Mus musculus with 87 samples.

Results

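Ly6d, Reg3b and D17H6S56E-5 are 3 protein-coding genes of the 37991 in the table of transcript levels of mouse liver after 70% partial hepatectomy (PH). They were chosen by their measured rise (among the largest of all genes) in PH livers over sham-operated livers at 10, 20 or 48 h, so their levels in the groups of those hours are a description with no test. All 3 passed the filter on low values, as did 15396 genes in all. Poly(A)-selected RNA of individual livers of C57BL/6 male mice was sequenced, and 80 livers in 19 groups were analysed. The mice were aged 12 to 14 weeks, which for the operated mice was the age at surgery. Resting, unoperated livers were collected at Zeitgeber time (ZT) 2, which is 2 h after lights on (C0, n = 9). PH livers (X) were collected at 1 h (X1, n = 6), 4 h (X4, n = 3), 10 h (X10, n = 6), 20 h (X20, n = 6), 28 h (X28, n = 3), 36 h (X36, n = 6), 44 h (X44, n = 3), 48 h (X48, n = 5), 72 h (X72, n = 3), 1 week (X1W, n = 3) and 4 weeks (X4W, n = 2) after surgery begun at ZT2. Sham livers (S), from mice that had all of the surgery except the resection, were collected at 1 h (S1, n = 6), 4 h (S4, n = 5), 10 h (S10, n = 3), 20 h (S20, n = 3) and 48 h (S48, n = 3). Unoperated livers were also taken at ZT6, the hour of X4 and S4 (C4, n = 3), and with the 4-week livers (C4W, n = 2). All of the mice had been kept on a cycle of light and dark with food in the dark, and the labels name no genetic change.

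After PH, the remaining hepatocytes, most of which are quiescent in the resting liver, re-enter the cell-division cycle. Cytokines of the interleukin-6 (IL-6) family act early through the receptor subunit gp130 and the transcription factor STAT3, which drives acute-phase genes in hepatocytes. Ly6d encodes a small cell-surface protein of the Ly6/uPAR family that is held to the membrane by a lipid anchor, and it is best known as a marker of B-lineage progenitors and of stratified squamous epithelium. Reg3b encodes a secreted lectin-like protein of the Reg family, known from inflamed pancreas and from the gut, where it acts against bacteria. D17H6S56E-5, which is also called G7e, lies among the genes of the major histocompatibility complex, between Lsm2, which encodes an RNA-binding protein, and Vars, which encodes the valyl-tRNA synthetase.

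In the mouse assembly mm9, Ly6d (ENSMUSG00000034634) lies on the minus strand at chr15:74592486-74593997, Reg3b (ENSMUSG00000071356) on the plus strand at chr6:78320879-78323460 and D17H6S56E-5 (ENSMUSG00000091747) on the minus strand at chr17:35133681-35138609. Their exons cover 691, 759 and 3996 bases. Of the 5 annotated transcripts of D17H6S56E-5, 4 begin 31 to 241 bases before the first base of Vars, on the opposite strand, and 1 begins inside Vars. The genes overlap by 678 bases, and reads were counted by strand. A stretch of at least 100 bases with at least 95% identity elsewhere in mm9 was found for 691 of the 3996 exon bases of D17H6S56E-5 (17.3%) and for none of those of Ly6d and Reg3b. The longest of these copied stretches covers 543 of the 958 bases of the exon block at chr17:35136944-35137901, and 7 alignments of at least 500 bases elsewhere match it at 96.3% to 98.1%. A read with several positions was divided among them, so part of the signal of D17H6S56E-5 is uncertain.

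The promoter windows (250 bases before to 50 bases after the start) of Reg3b, of its neighbour Reg3g and of D17H6S56E-5 are shown because Reg3g was highest in the same X20 liver as Reg3b and because the window of D17H6S56E-5 reaches into Vars. They are RefSeq sequences of GRCm38.p6, at chr6:78370635-78370934 on the plus strand for Reg3b, at chr6:78468825-78469124 on the minus strand for Reg3g and at chr17:35000697-35000996 on the minus strand for D17H6S56E-5, each read 5′ to 3′. Each has 1 exact copy in mm9. Capitals mark the motifs found.
Reg3b: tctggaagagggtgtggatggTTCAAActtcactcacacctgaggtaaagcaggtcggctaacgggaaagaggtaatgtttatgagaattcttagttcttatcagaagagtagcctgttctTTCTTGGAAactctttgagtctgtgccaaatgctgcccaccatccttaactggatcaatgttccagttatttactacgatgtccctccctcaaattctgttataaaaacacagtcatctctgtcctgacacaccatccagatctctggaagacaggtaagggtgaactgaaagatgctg
Reg3g: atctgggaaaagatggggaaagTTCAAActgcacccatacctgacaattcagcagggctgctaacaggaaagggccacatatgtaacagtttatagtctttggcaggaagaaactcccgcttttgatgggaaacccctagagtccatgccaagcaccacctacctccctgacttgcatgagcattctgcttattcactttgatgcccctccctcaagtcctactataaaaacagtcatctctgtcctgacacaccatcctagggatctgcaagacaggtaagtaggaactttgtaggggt
D17H6S56E-5: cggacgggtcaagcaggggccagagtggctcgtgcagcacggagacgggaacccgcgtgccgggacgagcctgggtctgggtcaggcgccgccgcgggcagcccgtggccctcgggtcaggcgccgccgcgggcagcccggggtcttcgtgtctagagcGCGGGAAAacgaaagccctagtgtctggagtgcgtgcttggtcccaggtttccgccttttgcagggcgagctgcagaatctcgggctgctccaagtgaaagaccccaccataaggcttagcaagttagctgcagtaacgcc

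The letters of 6 motifs were searched on both strands. The STAT letters TTCNNNGAA occur in the window of Reg3b, from position -129 to -121 relative to the start, and not in that of Reg3g. They are found in 8.33% of 32544 promoter windows. The letters TTTGAA, which belong to the cell-cycle homology region of many late cell-cycle promoters, occur on the reverse strand in the windows of Reg3b and Reg3g, from 229 and 228 bases before their starts, and in 17.8% of all windows. D17H6S56E-5 holds the E2F-like letters TTTCCCGC on the reverse strand, 91 bases before the start. These last letters were added after the window was seen, and 1.08% of all windows hold them. CCAAT (37.4% of all windows), TGANTCA (7.79%) and TTTCGCGC (0.326%) do not occur in the 3 windows, and no motif found overlaps another.

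The depth, estimated from the value that 1 read stands for, lay between 12.2 and 49 M reads per library (M, mega) with a median of 26.8 M. For X28 replicate 2 the estimate is uncertain, since 46.0% of its low values were whole reads, against 80.1% to 86.2% in the other 79 libraries, and it was the single library with Reg1 and Reg2 above 0. Without it, the calls of the 3 genes in X28 against C0 and in X36 against X28 were as with it, and the X28 to C0 differences were 6.27 for Ly6d and 2.71 for D17H6S56E-5 on the log2 scale. Levels are given as RPKM, the reads of a gene scaled to the length of its exons and to the size of the library, and a gene without reads is listed at 0. Group differences were taken on log2(RPKM + 0.25) with limma over all genes kept, and a gene was called at a Benjamini-Hochberg adjusted p below 0.05 with a log2 fold change beyond 0.5. SE is the standard error of that fit. Folds are likewise of RPKM + 0.25 and are smaller than folds of RPKM where a group is near 0.25 RPKM, as for Ly6d in C0. In whole livers, fewer cells of a type and less RNA per cell cannot be told apart.

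Ly6d was low in resting liver and high from 10 h to 72 h after PH. The C0 livers lay between 0.0939 and 0.81 RPKM (median 0.492), which came to 2 to 12 reads. The 3 C4 livers were at 0.493, 0.714 and 0.646 RPKM and the C4W livers at 0.134 and 0.247 RPKM. At 1 h, sham livers lay between 0.119 and 0.549 RPKM and PH livers between 0.225 and 0.55 RPKM, within the range of C0. At 4 h, sham livers stood at 1.18, 1.38, 3.15, 1.08 and 2.17 RPKM and PH livers at 3.68, 2.86 and 2.54 RPKM, all of them above every unoperated liver.

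The separation of PH from sham in Ly6d appeared at 10 h. The S10 livers were at 4.11, 4.8 and 5.32 RPKM, and the 6 X10 livers lay between 24.2 and 38.3 RPKM. At 20 h the sham livers were at 1.68, 1.75 and 2.26 RPKM, and the X20 livers held 17.9, 6.74, 7.26, 7.53, 37.7 and 76.8 RPKM. The 2 highest X20 livers, replicates 5 and 6, were also those with the most Reg3b. The groups did not overlap at either time.

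From 28 h to 72 h, the group means of Ly6d in PH livers were the highest of all groups. The X28 livers held 49.9, 64.7 and 52.8 RPKM, and X28 was the group with the highest mean on the log2 scale. The 6 X36 livers lay between 9.44 and 70.8 RPKM, and the X44 livers stood at 52.7, 70.9 and 15.5 RPKM. The spread between livers was wide again at 48 h, with 93, 13.6, 37.3, 28.2 and 62.2 RPKM in X48 and 0.84, 0.597 and 1.44 RPKM in S48. X72 was uniform, at 40.9, 37.3 and 38.9 RPKM. X72 came next in the order of means without overlapping X28, and X72, X36, X44, X48, X10, X20 and X1W each overlapped the next. The X1W livers had 8.65, 1.81 and 14.3 RPKM, above every C0 liver, and the X4W livers had 0.582 and 0.577 RPKM, inside the C0 range.

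**Figure D1:**
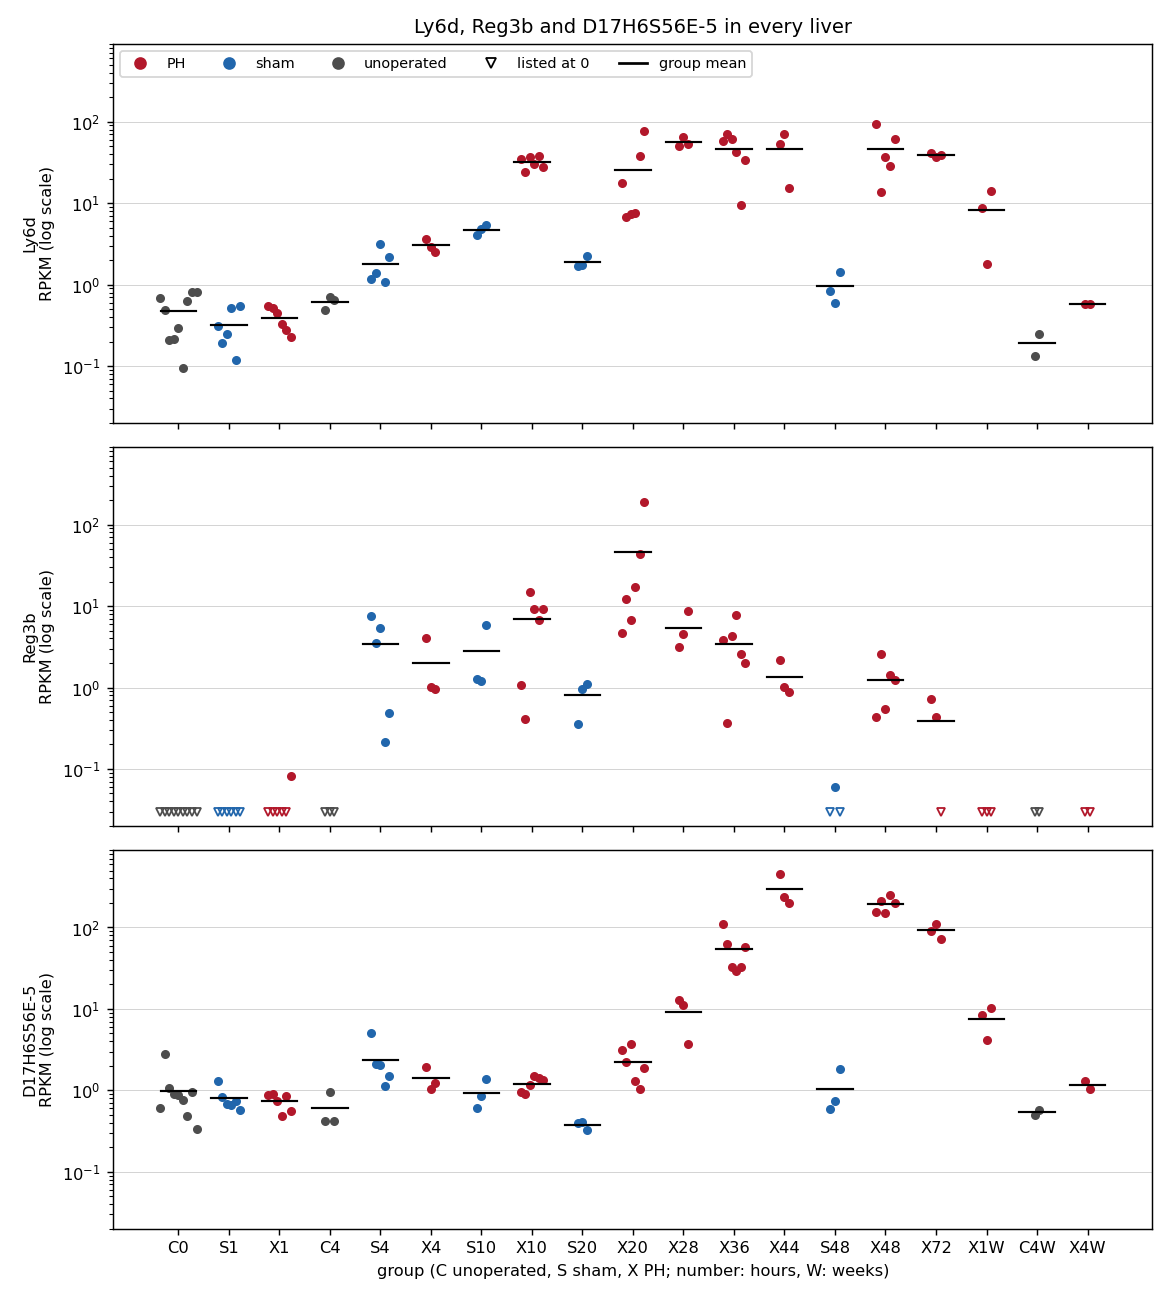
RPKM (log axis) of Ly6d, Reg3b and D17H6S56E-5 in each of 80 livers by group, with points for livers, triangles for livers listed at 0 and bars for the mean RPKM of a group where it is above the axis. Ly6d is high from X10 to X72, Reg3b peaks in X20 with a liver at 191 RPKM, and D17H6S56E-5 climbs from X28 to X44, where the livers reach 199 to 454 RPKM.

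Reg3b was listed at 0 in all of the 9 C0, 3 C4, 2 C4W and 6 S1 livers, where 3 reads would have stood for 0.0857 to 0.324 RPKM. A single X1 liver held 2 reads (0.0819 RPKM). It was first seen at 4 h and in both operations, at 7.58, 3.51, 5.33, 0.214 and 0.483 RPKM in S4 and at 4.05, 1.02 and 0.96 RPKM in X4. S4 replicates 1 to 3 had 106 to 282 reads of it and replicates 4 and 5 had 5 and 10. The sham and PH livers overlapped at 4 h, and at 10 h as well, where the S10 livers held 1.29, 1.19 and 5.84 RPKM and the X10 livers lay between 0.414 and 14.9 RPKM.

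At 20 h the operations no longer overlapped. The S20 livers were at 0.36, 0.954 and 1.12 RPKM, and the X20 livers were at 4.62, 12.2, 6.73, 17.3, 43.2 and 191 RPKM. X20 had the highest mean of all groups and the widest spread. Reg3b was lower in PH livers after 20 h, with 3.12, 4.48 and 8.66 RPKM in X28, between 0.371 and 7.78 RPKM in X36, 2.16, 1.02 and 0.884 RPKM in X44 and between 0.44 and 2.55 RPKM in X48. At 72 h the livers had 0.722, 0.429 and 0 RPKM, and all X1W and X4W livers were listed at 0. Of the S48 livers, 2 were listed at 0 and 1 held a single read. Every group overlapped the next in the order of means for Reg3b.

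Reg3g, the neighbour of Reg3b that also encodes a secreted antimicrobial lectin, was highest in the X20 livers too. It was listed at 0 in all C0, C4, C4W, S1, X1 and X4W livers. X20 replicates 4 to 6 held 2.76, 4.12 and 13 RPKM of Reg3g, against 0.04, 0.312 and 0.203 RPKM in replicates 1 to 3. Reg3a, which lies between Reg3b and Reg3g on the chromosome, was listed at 0 in X20 replicates 1 to 3 and had 0.176, 0.316 and 1.91 RPKM in replicates 4 to 6. The Reg3b values of these 2 sets of livers were 4.62 to 12.2 RPKM and 17.3 to 191 RPKM. The study made its X20 livers in more than 1 experimental period, and which replicate numbers belong to which is not given in the sources used here. The cause of this split was not tested. Of the other 6 Reg genes in the table, Reg3g and Reg3a passed the filter, and Reg1, Reg2, Reg3d and Reg4 reached at most 0.17 RPKM in any liver.

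**Figure D2:**
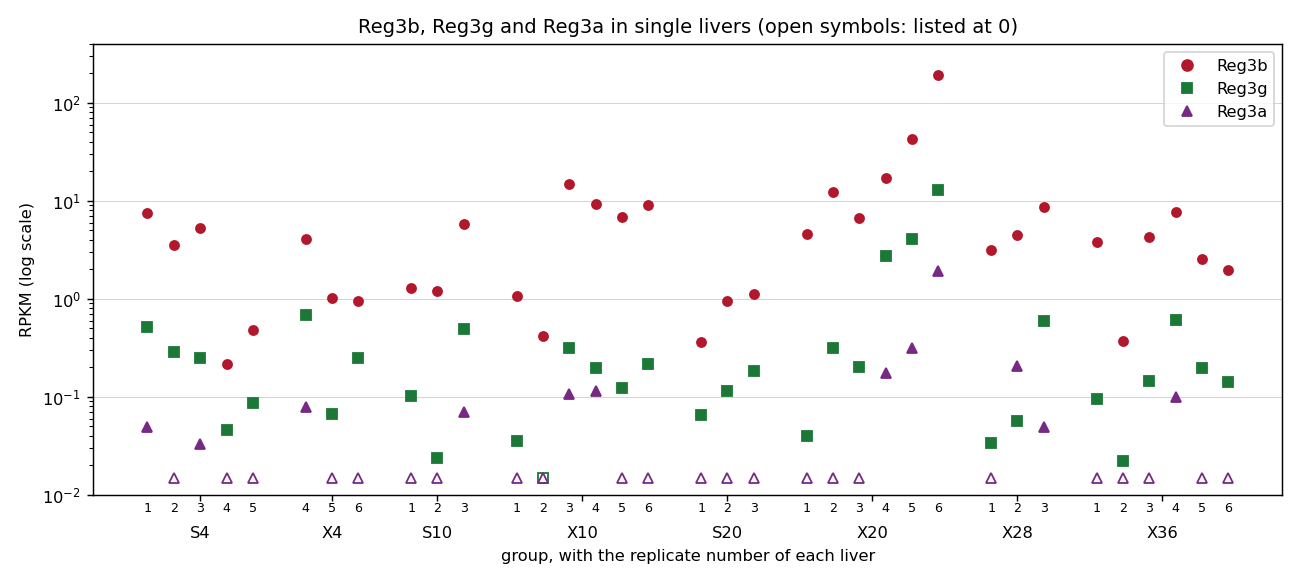
RPKM (log axis) of Reg3b, Reg3g and Reg3a in single livers of S4, X4, S10, X10, S20, X20, X28 and X36, with the replicate number under each liver and open symbols for livers listed at 0. In X20, replicate 6 is the highest for all 3 genes (191, 13 and 1.91 RPKM), and Reg3a is above 0 only in replicates 4 to 6.

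D17H6S56E-5 was at a low level in every unoperated liver and reached the highest level of the 3 genes, at 44 h after PH. The C0 livers lay between 0.338 and 2.8 RPKM (median 0.89), the C4 livers had 0.416, 0.966 and 0.422 RPKM and the C4W livers 0.501 and 0.581 RPKM. The S1 livers lay between 0.569 and 1.3 RPKM and the X1 livers between 0.484 and 0.912 RPKM. Sham livers at 4 h had 5.06, 2.12, 2.04, 1.13 and 1.5 RPKM, above every C4 liver, and PH livers had 1.95, 1.03 and 1.22 RPKM. The groups at 10 h overlapped, with 0.612, 0.842 and 1.37 RPKM in S10 and between 0.912 and 1.5 RPKM in X10.

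At 20 and 48 h, every PH liver held more D17H6S56E-5 than every sham liver. The S20 livers held 0.393, 0.411 and 0.326 RPKM, and the X20 livers held 3.14, 2.25 and 3.76 RPKM (replicates 1 to 3) and 1.32, 1.05 and 1.91 RPKM (replicates 4 to 6). The second set was thus the lower for D17H6S56E-5 and the higher for Reg3b. In X28 the livers stood at 13, 11.2 and 3.68 RPKM, and in X36 between 29.6 and 110 RPKM. X44 had the highest values, 454, 237 and 199 RPKM, or 20100 to 52100 reads. X48 followed with 155, 212, 151, 249 and 200 RPKM against 0.588, 0.746 and 1.81 RPKM in S48. The X72 livers held 91.7, 111 and 72.9 RPKM, the X1W livers 8.31, 4.18 and 10.4 RPKM and the X4W livers 1.29 and 1.04 RPKM. In the order of means, X44 and X48 overlapped, X48 and X72 did not, and neither did X36 and X28.

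The rank of the rise over sham at 10, 20 and 48 h is what chose the genes. Ranked were genes called higher in PH, above a low level in PH or sham, whose livers did not overlap. At 10 h, Ly6d had rank 3 among 367 such genes (log2 fold change 2.69, SE 0.52). Before it came Cidec, a lipid droplet protein, and Cdkn1a, the cell-cycle inhibitor p21. The gene at rank 4 was Gm15441, at a log2 fold change of 2.56. At 20 h, Reg3b was first (4.31, SE 0.73) and Ly6d second (2.97, SE 0.52) of 432 genes, before Igfbp1, an IGF-binding protein (2.64), and 3930402G23Rik (2.61), and D17H6S56E-5 had rank 13 (1.88, SE 0.37). At 48 h, D17H6S56E-5 was first of 3046 genes (7.31, SE 0.38), before Cdc20, an activator of the anaphase-promoting complex (7.04), Ube2c, a ubiquitin-conjugating enzyme of that complex (6.32), and Ccnb2, a mitotic cyclin (6.31). Ly6d had rank 25 at 48 h (5.06, SE 0.53) and Reg3b rank 229 (2.29, SE 0.75). Among all genes tested, 7.02%, 7.11% and 27.2% were called in either direction at the 3 times. The study places S10 and S20 in 1 experimental period and X10 and X20 in more than 1. Some PH livers at 10 and 20 h therefore have no sham livers of their period.

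The earliest comparisons asked what surgery of either kind and the hour of the day did to the 3 genes. None was called between X1 and S1, where 0.65% of all genes were called, between S1 and C0 (7.77%) or between C4 and C0 (7.89%). For Ly6d the X1 to S1 difference was 0.20 on the log2 scale (95% interval -0.65 to 1.04), and for D17H6S56E-5 it was -0.07 (-0.68 to 0.53). Reg3b was at or under 3 reads in both groups of all of these comparisons and gives no fold.

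Between S4 and C4, Reg3b and D17H6S56E-5 rose in sham livers (2 of 3 genes called, against 43.3% of all genes). Reg3b was above 0 in 5 of 5 S4 livers and listed at 0 in 3 of 3 C4 livers (adjusted p = 0.000268 by limma). D17H6S56E-5 was 2.86-fold higher (log2 fold change 1.52, SE 0.38, adjusted p = 0.000579), with 5 of 5 S4 livers above every C4 liver. Ly6d differed by 1.15 on the log2 scale and was not called (SE 0.53, adjusted p = 0.0583). With S4 replicates 4 and 5 alone, neither Reg3b (adjusted p = 0.256) nor D17H6S56E-5 (adjusted p = 0.0958) was called. The study's methods place C4 and S4 in different experimental periods, so the period and the surgery cannot be told apart here.

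Between X4 and S4 none of the 3 genes was called, while 8.64% of all genes were. Ly6d had a difference of 0.76 (SE 0.53, adjusted p = 0.398), D17H6S56E-5 of -0.54 (SE 0.38, adjusted p = 0.408) and Reg3b of -0.25 (SE 0.75, adjusted p = 0.914). The interval for Reg3b, -1.76 to 1.25, leaves room for a change in either direction. The difference of the PH effects at 4 h and 1 h was not called for Ly6d (0.57, SE 0.68, adjusted p = 0.793) or D17H6S56E-5 (-0.47, SE 0.49, adjusted p = 0.738), and 4.68% of all genes were called.

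At 28, 36 and 44 h after PH all 3 genes were called higher than in C0. Of all genes, 24.9%, 35.0% and 39.2% were called in either direction, and 13.63%, 25.75% and 30.82% higher. These comparisons share the 9 C0 livers. C0 livers were unoperated and taken at ZT2, while X28, X36 and X44 fell at other hours of the day and have no sham group. Resection and the rest of the surgery therefore cannot be told apart, nor, in X36 and X44, can the hour with its feeding. X28 fell at ZT6, the hour of C4, though the study places C4 in another period. The C4 livers lay at 0.493 to 0.714 RPKM for Ly6d and 0.416 to 0.966 RPKM for D17H6S56E-5, and were listed at 0 for Reg3b. X28 was not tested against C4. X28 and X44 also came from 1 of the study's 3 periods and C0 from all 3. Ly6d was 83.1-fold higher in X28 (log2 fold change 6.38, SE 0.49, adjusted p = 4.26e-17 by limma), 58.4-fold in X36 and 58.3-fold in X44. D17H6S56E-5 was 7.63-fold higher in X28 (2.93, SE 0.35, adjusted p = 2.95e-10), 44-fold in X36 (5.46, SE 0.28) and 252-fold in X44 (7.97, SE 0.35, adjusted p = 2.75e-30). Reg3b was above 0 in 12 of 12 of these livers and in 0 of 9 C0 livers, with adjusted p = 3.59e-07 at 28 h, 6.73e-08 at 36 h and 0.00094 at 44 h by limma, the last of which was 0.0577 with a pseudocount of 1 RPKM. X36 replicate 5, at 9.44 RPKM, was far below the other X36 livers for Ly6d but still above every C0 liver.

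Between X28 and X36 only D17H6S56E-5 was called among the 3 (18.1% of all genes). It was 5.77-fold higher in X36 (log2 fold change 2.53, SE 0.37, adjusted p = 1.24e-07), with 6 of 6 X36 livers above every X28 liver. Ly6d had a difference of -0.51 (95% interval -1.54 to 0.52) and Reg3b of -0.85 (-2.31 to 0.60). X28 and X36 also differ in the hour of the day, which cannot be told apart from the time after PH.

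At 72 h, Ly6d (58.6-fold, adjusted p = 2.45e-16 by limma) and D17H6S56E-5 (82.2-fold, adjusted p = 1.49e-24 by limma) were still called higher than in C0, and Reg3b, above 0 in 2 of 3 livers, was not (adjusted p = 0.168 by limma), with 33.2% of all genes called. From 72 h to 1 week, Ly6d fell by 2.61 on the log2 scale (SE 0.59, adjusted p = 0.000705) and D17H6S56E-5 fell by 3.62 (SE 0.43, adjusted p = 8.62e-10), while 16.3% of all genes were called. With X72 and X1W fitted alone, the fall of Ly6d was not called (adjusted p = 0.0817). At 1 week both were still above C0, Ly6d 9.61-fold (adjusted p = 4.63e-07 by limma) and D17H6S56E-5 6.71-fold (adjusted p = 1.41e-08 by limma), among 16.9% of all genes. At 4 weeks neither was called against C4W, and 0.065% of all genes were called. The differences were 0.92 (95% interval -0.53 to 2.38) for Ly6d and 0.84 (-0.21 to 1.89) for D17H6S56E-5. No sham group was taken at 72 h, 1 week or 4 weeks, so resection and the rest of the surgery cannot be told apart. X72 and X1W also came from 1 of the study's 3 periods and C0 from all 3.

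**Figure D3:**
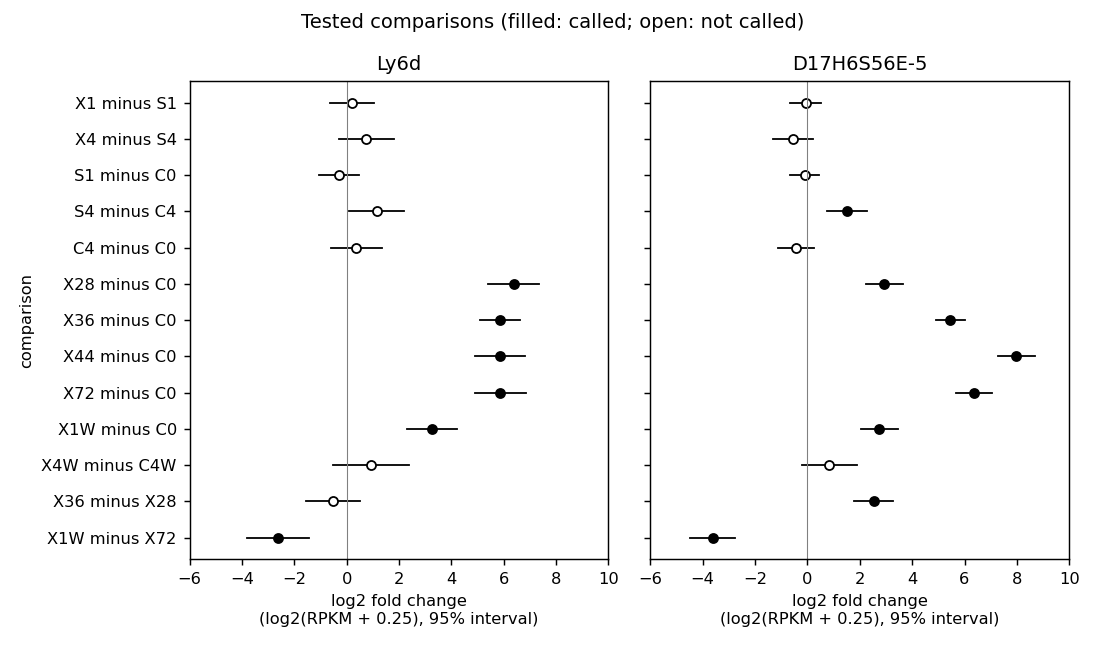
Log2 fold changes on log2(RPKM + 0.25) of Ly6d and D17H6S56E-5 in the 13 tested comparisons, with 95% intervals, filled where called; Reg3b is left out because its control livers were listed at 0. Both genes lie to the right of 0 against C0 from X28 to X1W, D17H6S56E-5 by 7.97 in X44, and both lie to the left between X72 and X1W.

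Among the Ly6/uPAR family, no other member was called higher than C0 by more than 1.04 on the log2 scale at 28, 36, 44 or 72 h or 1 week. Of the 31 others in the table, 12 passed the filter, and 4 were listed at 0 in every liver. Against C0, the 12 had a median log2 fold change of 0.30 in X28 (3 called higher, 2 lower). In X44 it was -0.05 (1 higher, 3 lower). The medians over all genes were 0.00 and 0.23. Of all genes, 13.63% were called higher and 11.28% lower in X28, and 30.82% and 8.424% in X44. With libraries scaled to the same median, 0 of the 12 were called higher and 6 lower in X44. Called higher in X28 were Ly6g, a neutrophil surface protein (1.04, SE 0.20), which rested on X28 replicate 2 at 1.43 RPKM with the other livers at 0 and 0.124 RPKM, Plaur, the urokinase receptor (0.75, SE 0.25), and Lynx1, a neighbour of Ly6d on chromosome 15 (0.57, SE 0.15). Called lower were Gpihbp1, which holds lipoprotein lipase on endothelium (-0.99, SE 0.17), and Cd59b, a complement inhibitor (-0.90, SE 0.15). Against sham, the comparisons that chose Ly6d, 3 of the 12 were called higher in X10, 2 in X20 and 4 in X48. Called lower were 0, 1 and 2 of them. Of all genes, 3.403%, 4.495% and 24.51% were called higher and 3.618%, 2.611% and 2.689% lower. Among the 3 in X10 were Ly6c1 (1.51, SE 0.31) and Ly6a (1.46, SE 0.24). Ly6c1 (0.95, SE 0.32) and Ly6a (0.75, SE 0.24) were also called higher in X4 than in S4, and Ly6e was called lower. Of all genes, 3.157% were called higher there and 5.482% lower. Ly6e, the most abundant member, had 71.1 to 148 RPKM in C0 and 131 to 139 RPKM in X28 and was not called between these groups. It was called higher than C0 in X72 and X1W.

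The IL-6 pathway and its acute-phase targets were read beside Reg3b from lists. Between S4 and C4, 19 of 20 STAT3 and acute-phase targets rose and none fell. Their median log2 fold change was 2.55, beside -0.22 over all genes, of which 12.25% were called higher and 31.03% lower. The 19 were called with S4 replicates 4 and 5 alone as well. Among them were Lcn2, an iron-carrier binding protein (9.18, SE 0.64), Saa2 (8.98, SE 0.70) and Saa1 (7.81, SE 0.66), acute-phase apolipoproteins whose near-identical copies can share reads, and Saa3 (6.22, SE 0.88). Of 14 tested ligands, receptors and signal carriers listed for the IL-6 family, 6 rose and 7 fell beside 43.3% of all genes called. The list also holds Il10rb and Il22ra1, receptor chains outside that family. The ligands Il6, Il11, Lif and Osm did not pass the filter and were not tested. Among those that rose were Socs3, an inhibitor of the pathway (2.76, SE 0.41), Stat3 itself (2.12, SE 0.16) and Il6ra, the receptor (1.96, SE 0.39). Among those that fell was Ctf1, a ligand (-1.78, SE 0.23). No gene of either list was called between X4 and S4. Between X20 and S20, where Reg3b separated the operations, 6 of 20 targets were called higher and 0 lower beside 7.11% of all genes called, among them Steap4, a metalloreductase (1.43, SE 0.43), Apcs, the serum amyloid P component (1.02, SE 0.30), and the fibrinogen chains Fgb (0.84, SE 0.20) and Fga (0.82, SE 0.19). The summed level of the targets was 62370 to 73550 RPKM in S20, 66740 to 82970 RPKM in X20 replicates 1 to 4 and 111300 and 131600 RPKM in replicates 5 and 6, the livers with the most Reg3b, and its part in the level of Reg3b was not tested. Against C0, 18 of the 20 targets were higher in X28, 19 in X36, 18 in X44 and 17 in X72, where 2 of 3 livers held Reg3b. Of all genes, 13.63%, 25.75%, 30.82% and 26.6% were called higher there.

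Genes of DNA replication and mitosis were read beside D17H6S56E-5. Of 18 proliferation genes, 15 were called higher in X28 than in C0 and all 18 in X36, X44 and X72. Their median log2 fold changes were 1.92, 3.90, 5.47 and 4.26. Of all genes, 13.63%, 25.75%, 30.82% and 26.6% were called higher in the same comparisons. In X44 the largest were Cdc20 (6.57, SE 0.34), Plk1, a mitotic kinase (6.15, SE 0.26), Mki67 (5.94, SE 0.26) and Ccnb2 (5.88, SE 0.31). From X28 to X36 all 18 rose (median 2.07), while 15.11% of all genes were called higher. From X72 to X1W all 18 fell (median -2.52), while 12.17% of all genes were called lower. Between S4 and C4, where D17H6S56E-5 rose, 1 proliferation gene was called higher and 3 lower (median -0.16). Of all genes, 12.25% were called higher and 31.03% lower. With libraries scaled to the same median, 1 proliferation gene was higher and 0 lower (median 0.045).

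Pearson correlation of group means over the 19 groups named the genes whose pattern was most like each of the 3, among 11560 others. The points share libraries and depth, so the values are a description. For D17H6S56E-5 they were Pbk, a mitotic kinase (r = 0.988), Top2a, topoisomerase II (0.988), Kif22, a kinesin (0.987), Tpx2, a spindle assembly factor (0.987), and Ckap2l, a spindle protein (0.987). For Ly6d they were Ccdc120 (0.971), Mmp14, a membrane metalloprotease (0.960), Abhd2 (0.952), Pgm3, an enzyme of UDP-N-acetylglucosamine synthesis (0.949), and Kctd17 (0.946). Ccdc120 had a median of 0.202 RPKM in C0 and of 3.44 RPKM in X28. For Reg3b the values were lower, with BC013529 (0.935), Pdzrn3 (0.898), Jam2, a junction protein (0.884), Fbp1, a gluconeogenic enzyme (0.878), and Atg16l1, an autophagy protein (0.874). Over the 80 single livers, 4 of these 5 genes were again among the first 5 for Ly6d and for D17H6S56E-5, and 1 of 5 for Reg3b, for which Saa3 (r = 0.868), Fn1, the gene of fibronectin (0.816), and Orm1, an acute-phase plasma protein (0.809), came first. Among themselves, the 3 genes had r = 0.70 for Ly6d and Reg3b, 0.77 for Ly6d and D17H6S56E-5 and 0.24 for Reg3b and D17H6S56E-5 over group means. For Ly6d, Reg3b had rank 2048 and D17H6S56E-5 rank 1038 among the 11560, whose median r was 0.39. The 19 groups include those that chose the genes.

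**Figure D4:**
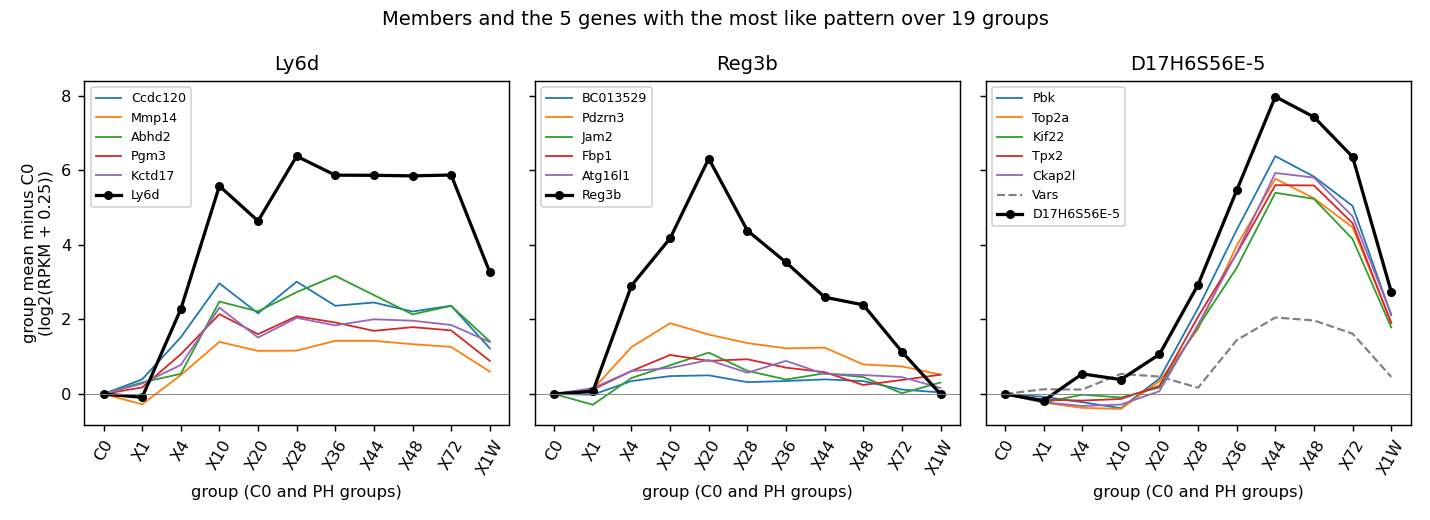
Group means of log2(RPKM + 0.25) minus the mean of C0, in C0 and the PH groups from X1 to X1W, for each of the 3 genes (black) and the 5 genes whose group means over 19 groups correlated best with it, with Vars dashed. D17H6S56E-5 and its 5 genes climb together to X44, whereas the genes nearest to Ly6d and Reg3b change by less than those 2 genes do.

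The neighbours on the chromosome were looked at up to the fifth annotated gene on each side. Vars, on the strand opposite to D17H6S56E-5, was called higher than C0 in X36 (1.44, SE 0.10), X44 (2.05, SE 0.12) and X72 (1.62, SE 0.12), rose from X28 to X36 (1.27, SE 0.13) and fell from X72 to X1W (-1.16, SE 0.15). It had 3.07 to 4.74 RPKM in C0 and 15.8 to 22.1 RPKM in X44. Lsm2 rose as well in X36 (0.91, SE 0.13) and X44 (1.27, SE 0.16). Of the 5 neighbours tested, 3 were called higher in X36 (25.75% of all genes) and 2 in X44 (30.82%). The remaining one in X36 was Hspa1a, which encodes a heat-shock protein (1.07, SE 0.34). A set of 5 is too small to be read against these shares. Beside Ly6d, Lynx1 was called higher in X28, X44 and X72 by at most 0.68, with no liver above 0.594 RPKM, and 4930572J05Rik was called higher in X36, X44 and X72 by at most 1.07. Beside Reg3b, Reg3g (2.06, SE 0.51) and Reg3a (0.84, SE 0.26) were called higher in X20 than in S20, the comparison that chose Reg3b, and neither was called in the 13 comparisons that did not choose the genes. Gm9008, 1873100 bases away, was called higher against C0 in X28, X36, X44, X72 and X1W by 0.65 to 1.78.

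Markers of cell types in which the genes are well known were read beside them. The summed level of 21 pancreatic acinar markers stayed at or below 0.537 RPKM in every liver and lay between 0.104 and 0.343 RPKM in X20, where Reg3b reached 191 RPKM, and Prss1, Cuzd1, Rnase1 and Try10 were listed at 0 in every library. Of 10 intestinal markers, 3 passed the filter, Cdx1 and Sis were listed at 0 in every library, and the sum was 41.6 to 81.6 RPKM in X20 and 56.3 to 63.8 RPKM in S20. The B-lineage markers summed to 0.535 to 0.892 RPKM in X28 and 0.545 to 4.05 RPKM in C0. Of 5 tested, none was called higher and 2 were called lower in X28, where 11.28% of all genes were called lower. The 12 squamous markers summed to 0.581 to 0.977 RPKM in X28 and 0.71 to 1.35 RPKM in C0, with Dsg3 at 0 in every library. None of the 3 tested was called in X28, where 24.9% of all genes were. Neutrophil markers were higher in S4 (7.39 to 45.8 RPKM) than in C4 (1.39 to 5.54 RPKM), with a range of 0.411 to 54.9 RPKM in C0. Between S4 and C4, 5 of 10 rose, while 43.3% of all genes were called and 12.25% called higher. The part of these markers in the rise of Reg3b in S4 was not tested. In X20 their sum was highest in replicates 5 and 6, at 10.2 and 13.4 RPKM, the livers with the most Reg3b, and lay between 1.4 and 4.7 RPKM in the other 4.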

How the data were processed

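Poly(A)-selected RNA of 80 individual livers was analysed. Of 87 labelled samples, 7 (3 of X4, 3 of X60 and 1 of X4W) were not analysed here, and 4 columns of values that match no label were not used. The deposited values are log2 RPKM per gene. Per the methods of the study and the submitters' processing notes, the authors trimmed reads, aligned them to mm9 with TopHat 2.0.13, counted them by strand with featureCounts over Ensembl 67 genes, dividing a read with several positions among them, and took the log2 of RPKM. A gene without reads stands at the lowest value, -14.29, as did 52.9% of all values, and was read as 0 RPKM. No read counts were given, so depth was estimated from the step that 1 read stands for.

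Values were put on log2(RPKM + 0.25), genes above -1.5 on the deposited log2 scale in at least 1 library were kept (15396), and limma 3.58.1 in R 4.3.3 was fitted with 1 coefficient per group over all 80 libraries and a mean-variance trend. p-values were adjusted by Benjamini-Hochberg over all genes kept within each comparison, with thresholds of 0.05 and 0.5 on the log2 scale. They rest on the spread between the livers of a group, each from an individual mouse. Some groups mix livers of several experimental periods and others come from 1. Differences between periods are therefore in that spread only in part. Simulated data were used to test the scripts. Copies of exons were sought with BLAST+ 2.17.0.

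The 3 genes and all gene lists were chosen with earlier results of these data known. The text names the 3 genes, their families, their nearest neighbours, the 5 genes with the highest correlation of group means to each, and the 4 largest changes among the called genes of a list; genes named beyond this, such as Stat3, Il6ra and Ctf1, were chosen after their values were seen. Alternatives were the pseudocount, the filter, scaling, fits of fewer groups, a replicate block, sets of replicates and each replicate left out. The study was done in 3 periods; which replicate belongs to which is not given in the sources used here. Libraries of a group correlated at 0.966 to 0.9951 over 160 pairs.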

Additional observations from a re-analysis of the deposited data

Results flagged for a closer look

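The level in 1 liver stood far from the rest of its group in 3 of the 22 sets of 4 to 10 livers examined, where chance gives about 1 in 20. X36 replicate 5 held 9.44 RPKM of Ly6d, and the other 5 X36 livers held 34 to 70.8 RPKM. X1 replicate 6 held 0.0819 RPKM of Reg3b, or 2 reads, and the other 5 X1 livers were listed at 0. Any read there would have been flagged, so the rate of 1 in 20 does not hold for that set. C0 replicate 2 held 2.8 RPKM of D17H6S56E-5, and the other 8 C0 livers held 0.338 to 1.07 RPKM.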

How the results depend on the processing

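Of the 18 called results, 14 kept their direction and their call under every alternative run, as did 411 of their 415 values. Fold changes are on the log2 scale, and those of Reg3b against livers listed at 0 depend on the pseudocount and are no measure of size. With S4 replicates 4 and 5 alone, chosen after the data were seen, the S4 to C4 difference was not called for Reg3b (1.22) and D17H6S56E-5 (0.93), and the X4 to S4 difference became 1.69 for Reg3b and 0.0482 for D17H6S56E-5, whose difference of PH effects at 4 and 1 h became 0.12. The S4 to C4 difference of Ly6d was called with a pseudocount of 0.1 (1.30), with libraries scaled to the same median (1.36), without the groups that chose the genes (1.15), with S4 and C4 alone (1.15) and without S4 replicate 4, with 0.94 to 1.28 over replicates left out. The X44 to C0 difference of Reg3b was not called with a pseudocount of 1 (1.195), and that of X72 to C0 was called with a pseudocount of 0.1 (1.81) and with X72 and C0 alone (1.13). The fall of Ly6d from X72 to X1W was not called with these groups alone (-2.61). Reg3g in S4 was called higher than in C4 with a pseudocount of 0.1 and in both fits of fewer groups.

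Among the results not called, the sign changed for Ly6d between X1 and S1 with replicates 4 to 6 alone (-0.21, added after the data were seen) and between X28 and X36 with X36 replicates 1 to 3 alone (0.19, added likewise), for Ly6d between S1 and C0 (C0 replicates 4 to 6 alone, 0.31) and for D17H6S56E-5 between S1 and C0 (scaled, 0.0184; C0 replicates 7 to 9 alone, 0.34). With C0 replicates 7 to 9 alone, the C4 to C0 difference was -0.21 for Ly6d and 0.0173 for D17H6S56E-5. With a replicate left out, D17H6S56E-5 ranged from -0.139 to 0.0453 between X1 and S1 and from -0.229 to 0.0742 between S1 and C0, and Reg3b from -0.85 to 0.20 between X4 and S4. Of the values that chose the genes, the X10 to S10 difference of Reg3b was -0.00396 with X10 replicates 1 to 3 alone, the X20 to S20 difference of D17H6S56E-5 1.17 and its X48 to S48 difference 6.59 with a pseudocount of 1, and the X48 to S48 difference of Reg3b 3.28 and 1.06 with pseudocounts of 0.1 and 1. The cause of these shifts was not tested, other than by the construction of each alternative. Of the 5 genes most like Reg3b, 1 was among the first 5 over single livers.

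Same-numbered livers did not deviate together in every pair of any of the 13 comparisons checked (correlations of -0.186 to 0.296), and only between X72 and X1W did all 3 correlate best with their own number. The replicate block changed no call of the 3 genes and turned the S1 to C0 difference of Ly6d to 0.00108, as did a block of sets of 3. Low read numbers limit Ly6d and Reg3b in resting liver.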
